A study of Mus musculus with 15 samples.

Results

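The genes described here encode the subunits of the constitutive proteasome, the protease complex that degrades ubiquitin-tagged proteins. They were chosen by symbol under a rule without measured values, but with earlier results of these data known. All 35 were found among the 47643 gene symbols of the expression table, and all 35 belonged to the 11923 genes tested. A gene was tested if 3 or more of the 15 libraries held at least 1 TPM, its transcripts in every 1000000 after correction for length. Of the 35, 7 encode the alpha ring of the 20S core (Psma1 to Psma7), 7 its beta ring (Psmb1 to Psmb7), 6 the ATPases of the 19S regulator (Psmc1 to Psmc6), 11 its other subunits (Psmd1 to Psmd4, Psmd6 to Psmd8 and Psmd11 to Psmd14) and 4 activators that bind the ends of the core (Psme1 to Psme4). The related genes given for context were taken from lists of the pathway and are not members.

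RNA was sequenced from tibialis anterior, a fast limb muscle, of female C57BL/6J mice at day 49 after implantation of a melanoma or a mock injection. Melanoma-bearing mice that received lisinopril, an inhibitor of the angiotensin-converting enzyme, gave 4 libraries, and melanoma-bearing mice without the drug gave 4. Mock-injected mice with lisinopril gave 3 libraries, and mock-injected mice without the drug, the control group, gave 4. The labels state an age of 7 weeks for every group without saying at which point, call the melanoma a cachexia-inducing xenograft, and name no melanoma line, no genetic alteration of the mice and no dose of the drug. The extraction protocol speaks instead of 3 weeks after an injection of LLC cells, and the labels do not settle the difference. They call the libraries biological replicates and do not name the animals, so p-values measure the spread between these libraries. Below, tumour-bearing means the 8 libraries of both melanoma groups and tumour-free the other 7.

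The 20S core is a barrel of alpha and beta rings: the alpha rings form its gate, and Psmb5, Psmb6 and Psmb7 carry the sites that cut proteins. The 19S regulator caps the barrel, binds and removes ubiquitin and unfolds substrates with a ring of ATPases, while the PA28 and PA200 activators open the gate without ubiquitin. In wasting skeletal muscle the ubiquitin-proteasome pathway is a main route by which contractile proteins are broken down, and muscle ubiquitin ligases such as Trim63 (MuRF1) and Fbxo32 (atrogin-1) select its substrates.

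The 8 skeletal muscle markers summed to 62499.6 to 127480 TPM in tumour-bearing libraries and to 62871 to 104216 TPM in tumour-free ones, and 0 of 8 passed the limma test for a tumour effect (3 at an unadjusted p below 0.05). The 5 melanocyte or melanoma markers summed to at most 0.264 TPM in tumour-bearing and 0.392 TPM in tumour-free libraries, and Tyr was listed at 0 in all 15. Transcripts of the mitochondrial genome took 28.5% to 46.9% of TPM in tumour-bearing libraries and 40.8% to 52.8% in tumour-free ones, with the extremes in melanoma plus lisinopril 4 and control 3. Control 2 stood apart with 795 TPM summed over 15 interferon-stimulated genes, against 34.6 to 57.5 TPM in the other tumour-free libraries, and 23990 TPM of red blood cell markers. The table gives TPM only, so depth is unknown and a rise of a share of transcripts cannot be told apart from a fall of the rest.

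In tumour-free muscle all 35 subunits were detected. The median TPM over the 7 tumour-free libraries, a level per transcript length, ran between 26.5 TPM for Psme2 and 202 TPM for Psmb1. The highest medians after Psmb1 were 162 TPM for Psma6, 159 TPM for Psma2, 156 TPM for Psmd7 and 154 TPM for Psmc5, and the ranges of these 4 genes overlapped. The catalytic subunits stood next to one another, at 119 TPM for Psmb6, 115 TPM for Psmb7 and 111 TPM for Psmb5, with overlapping ranges. The lowest medians were 34.6 TPM for Psme3, 30.5 TPM for Psmd11, 27.1 TPM for Psme1 and 26.5 TPM for Psme2. The coefficient of variation over the 7 libraries was between 4.76% for Psmb2 and 25.0% for Psme3, whose highest value, 57.5 TPM, came from control 2.

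With a tumour, 3 subunits rose and 1 fell. Psma3 of the alpha ring, and Psmd4 and Psmd1 of the 19S regulator, rose by 0.44 ± 0.12, 0.82 ± 0.25 and 0.49 ± 0.15 on the log2(TPM + 1) scale (log2 fold change ± SE, 8 tumour-bearing against 7 tumour-free libraries, averaged over both drug arms). Psme1, which encodes PA28α, fell by 0.72 ± 0.14. The adjusted p-values were 0.0301, 0.0394, 0.0394 and 0.00587 (limma, two-sided, Benjamini-Hochberg over all genes tested, threshold 0.05). The 4 called members were 11.4% of 35, against a background of 18% of all genes called in this comparison (14.5% higher and 3.45% lower). At an unadjusted p below 0.05 the share was 34.3% of members (12 of 35) and 38.0% of all genes, so the members were not called more often than genes at large. Members on the plus side numbered 31 of 35 in TPM, 26 with the mitochondrial genome left out, 22 after median-ratio rescaling and 21 after quantile normalization. The number was 14 after median-ratio rescaling without control 2 and melanoma 2.

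The median of all genes tested was itself 0.17 in TPM, 0.056 without the mitochondrial genome and 0.0051 after median-ratio rescaling. Relative to the median of all genes, the median member stood at 0.099, 0.079 and 0.061 in the same order, and at 0.045 after quantile normalization. By role, the medians in TPM were 0.45 for the 19S non-ATPases, 0.34 for the 19S ATPases, 0.23 for the alpha ring, 0.15 for the beta ring and -0.03 for the activators. All 17 subunits of the 19S regulator were on the plus side in TPM, as were 15 after median-ratio rescaling and 14 after quantile normalization. Of the 14 genes of the 20S core, 12 were on the plus side in TPM and 6 after either rescaling. Leaving out melanoma 2 put the members' median at 0.15 and that of all genes at 0.14, and leaving out control 2 as well put them at 0.17 and 0.18. No test of these medians was run.

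**Figure D1:**
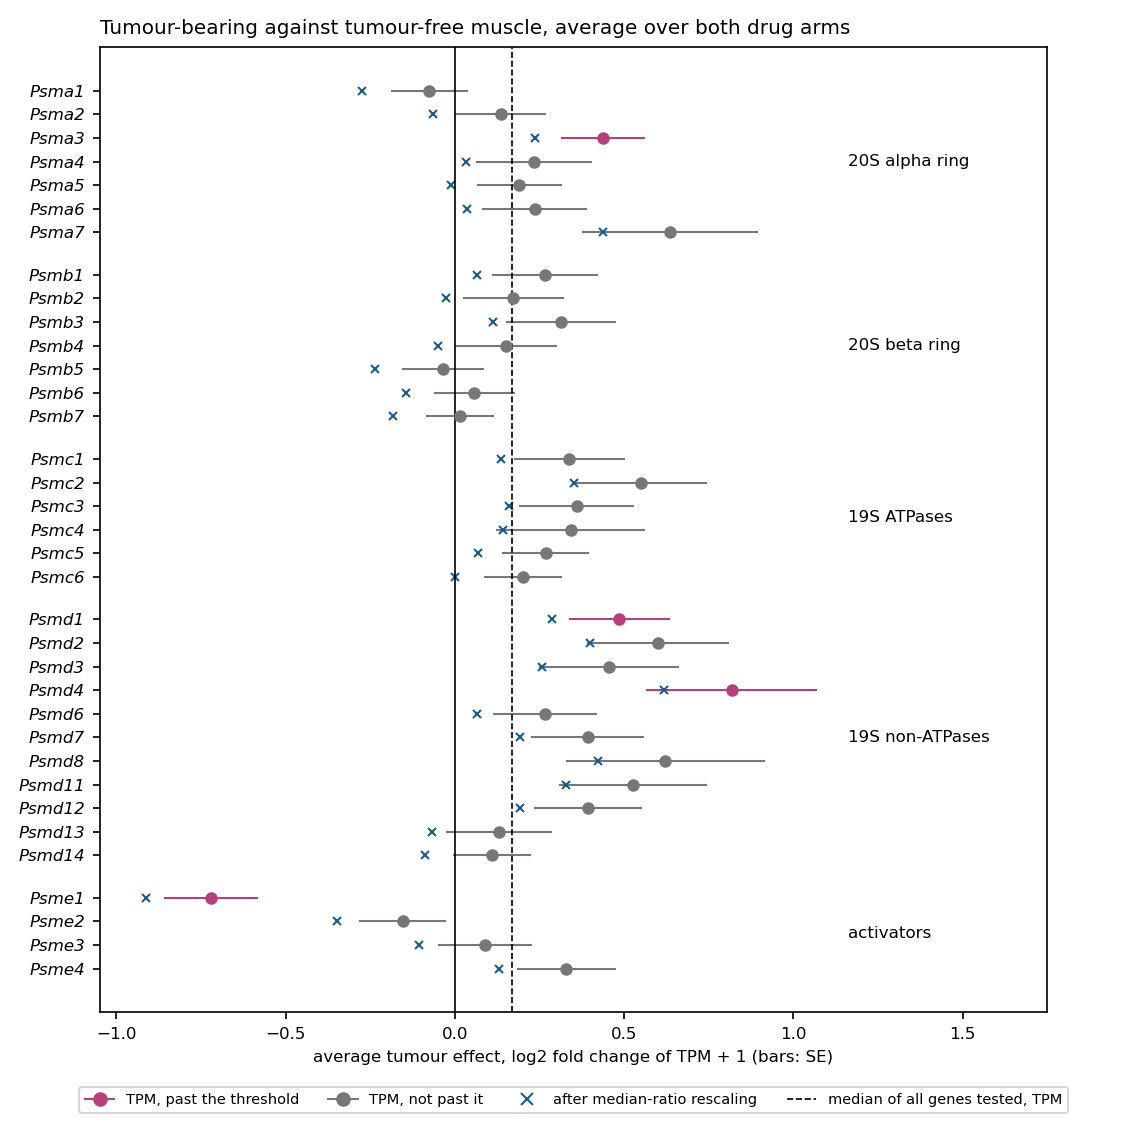
Average tumour effect on each of the 35 subunits, grouped by role, as log2 fold change of TPM + 1 with its SE (horizontal axis), with the value after median-ratio rescaling as a cross and the median of all genes as a dashed line. Psma3, Psmd1 and Psmd4 are coloured on the plus side and Psme1 on the minus side, and the crosses lie to the left of the points, on the minus side for 13 of the 35.

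Some members were set beside the letters of their promoters. Of those shown, Psmc2 and Psme2 did not pass the threshold, and Psmd1, which did, is not among them. RefSeq promoters (GRCm38.p6, 250 bases before to 50 after the start) were matched by symbol for 29 of the 35 genes, as 32 promoters. The sequences below, 5′ to 3′ on the gene's strand, belong to the member with the smallest p of the activators, the alpha ring, the non-ATPases and the ATPases (with 2 promoters), and to Psme2 (the first of 2), added after its values were seen because its protein is the partner of that of Psme1. Capitals mark matches to TGACNNNGC or TGAGNNNGC (cores of the antioxidant response element), CCAAT (the NF-Y box), GTAAACA (a forkhead site) or TTTC and TTTC with any 2 bases between them (core of the interferon-stimulated response element, added after the values were seen), on either strand. No matches overlapped in these sequences.
Psme1 (chr14:55578244-55578543, plus strand): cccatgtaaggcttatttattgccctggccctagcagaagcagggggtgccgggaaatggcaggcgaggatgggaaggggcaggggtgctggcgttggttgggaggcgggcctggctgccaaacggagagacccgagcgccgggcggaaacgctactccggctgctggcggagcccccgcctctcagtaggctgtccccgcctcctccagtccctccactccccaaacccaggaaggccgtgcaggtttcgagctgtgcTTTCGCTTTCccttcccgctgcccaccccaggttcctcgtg
Psme2 (chr14:55591052-55591351, minus strand): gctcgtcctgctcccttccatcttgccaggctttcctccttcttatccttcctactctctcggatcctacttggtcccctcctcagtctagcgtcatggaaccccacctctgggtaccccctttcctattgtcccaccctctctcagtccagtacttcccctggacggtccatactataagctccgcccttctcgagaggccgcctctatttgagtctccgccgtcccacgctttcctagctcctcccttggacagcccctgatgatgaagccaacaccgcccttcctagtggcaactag
Psma3 (chr12:70974373-70974672, plus strand): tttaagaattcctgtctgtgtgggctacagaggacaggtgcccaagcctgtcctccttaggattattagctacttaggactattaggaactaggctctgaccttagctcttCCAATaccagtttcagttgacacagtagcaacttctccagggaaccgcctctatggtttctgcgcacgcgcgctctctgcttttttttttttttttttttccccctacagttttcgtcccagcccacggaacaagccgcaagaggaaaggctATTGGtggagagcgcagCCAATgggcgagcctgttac
Psmd4 (chr3:95042565-95042864, minus strand): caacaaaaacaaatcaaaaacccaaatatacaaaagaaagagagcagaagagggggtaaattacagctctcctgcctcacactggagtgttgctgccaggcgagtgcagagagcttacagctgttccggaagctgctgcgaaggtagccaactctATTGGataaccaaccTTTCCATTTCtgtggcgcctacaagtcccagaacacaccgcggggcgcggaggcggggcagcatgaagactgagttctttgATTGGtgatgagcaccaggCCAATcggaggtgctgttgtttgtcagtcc
Psmc2, upstream start (chr5:21785025-21785324, plus strand): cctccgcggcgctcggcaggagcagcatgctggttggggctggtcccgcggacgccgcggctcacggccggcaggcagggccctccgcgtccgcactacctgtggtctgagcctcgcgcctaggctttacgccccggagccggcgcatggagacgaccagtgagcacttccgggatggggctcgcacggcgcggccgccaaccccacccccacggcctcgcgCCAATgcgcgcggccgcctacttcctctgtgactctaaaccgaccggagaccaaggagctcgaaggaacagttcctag
Psmc2, downstream start (chr5:21786497-21786796, plus strand): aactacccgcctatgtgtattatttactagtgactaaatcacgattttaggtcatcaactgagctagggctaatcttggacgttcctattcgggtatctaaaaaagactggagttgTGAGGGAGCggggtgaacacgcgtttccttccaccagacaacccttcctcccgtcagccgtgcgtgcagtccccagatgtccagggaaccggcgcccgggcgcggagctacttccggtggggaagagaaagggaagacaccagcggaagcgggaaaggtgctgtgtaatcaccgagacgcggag

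Psme1, the member that fell, held the interferon core with its first letter at base 10 counted from the RefSeq start. GENCODE places the start of Psme1 upstream of this window. Neither of the 2 promoters of Psme2 held any of the 5 motifs. The promoter read for Psmb9, an inducible subunit that is not a member and that also fell, held CCAAT and not the interferon core. Psma3 held CCAAT at 3 places and Psmd4 at 3, and Psmd4 also held the interferon core 80 bases before the start. Over the 32 member promoters, TGAGNNNGC was found in 11 (34.4%), against 17.6% of all 32851 promoters, and TGACNNNGC in 5 (15.6%), against 12.4%. One or both of the antioxidant cores was found in 14 (43.8%), against 27.8%. CCAAT was in 11 (34.4%), against 37.4%, the interferon core in 3 (9.38%), against 3.44%, and GTAAACA in none, against 3.65%. These are letter matches within the window, without a test, and a missing match says only that the letters are not there. Psma7, Psmd1, Psmd12 and Psmd13 were among the genes with TGAGNNNGC, and Psmb5, Psmb6 and Psme4 among those with TGACNNNGC.

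In the alpha ring 1 of 7 members rose, 14.3%, against 14.5% of all genes called higher. Psma3 (chr12:70974621-70996347, plus strand, GRCm38), the α7 subunit, was 1.35-fold higher with a tumour. Psma3 held 93.7, 79.4, 82.1 and 124 TPM in the melanoma plus lisinopril libraries 1 to 4 and 84.9, 124, 80.3 and 84.3 TPM in the melanoma libraries 1 to 4. In tumour-free muscle Psma3 held 70.4, 65.5 and 63.1 TPM in the lisinopril libraries 1 to 3 and 71.1, 76.7, 58.8 and 74.3 TPM in the control libraries 1 to 4. Every tumour-bearing library lay above every tumour-free one, which was true of 1.49% of all genes tested. The lead was small in 5 of the 8 tumour-bearing libraries, at 79.4 to 84.9 TPM against a tumour-free maximum of 76.7 TPM. Psma7, the α4 subunit, had a larger change that did not pass (0.64 ± 0.26, adjusted p = 0.089, limma). It reached 261 TPM in melanoma 2 and stood between 56.8 and 109.6 TPM in the other tumour-bearing libraries, against 46.6 to 74.8 TPM in tumour-free ones. Psma2, Psma4, Psma5 and Psma6 had changes between 0.13 and 0.24 that did not pass, and Psma1 had -0.08 ± 0.11 (adjusted p = 0.65, limma).

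In the beta ring 0 of 7 members passed the limma test in TPM, also at an unadjusted p below 0.05. In TPM the 3 catalytic subunits had the values nearest 0 in this ring, and after median-ratio rescaling they had those furthest from 0. Psmb5 held 116, 85.6, 99.1 and 129.5 TPM in the melanoma plus lisinopril libraries 1 to 4 and 116, 152, 112 and 94.3 TPM in the melanoma libraries 1 to 4. In tumour-free muscle Psmb5 held 108, 117 and 111 TPM in the lisinopril libraries 1 to 3 and 131, 105, 102 and 130.5 TPM in the control libraries 1 to 4. Psmb5, the chymotrypsin-like site, thus spanned 85.6 to 152 TPM with a tumour and 102 to 131 TPM without, and its change was -0.04 ± 0.12 (adjusted p = 0.848, limma). Psmb6 held 128, 96.8, 108 and 163 TPM in the melanoma plus lisinopril libraries 1 to 4 and 128, 142, 125 and 109 TPM in the melanoma libraries 1 to 4. In tumour-free muscle Psmb6 held 109.9, 123 and 119 TPM in the lisinopril libraries 1 to 3 and 134, 115, 99.6 and 135 TPM in the control libraries 1 to 4. The tumour-bearing range of Psmb6, the caspase-like site, again enclosed the tumour-free one, with a change of 0.06 ± 0.12 (adjusted p = 0.746, limma). Psmb7 held 117, 91.7, 107 and 132 TPM in the melanoma plus lisinopril libraries 1 to 4 and 115, 136, 114 and 109 TPM in the melanoma libraries 1 to 4. In tumour-free muscle Psmb7 held 121, 104 and 115 TPM in the lisinopril libraries 1 to 3 and 121, 103, 103 and 128 TPM in the control libraries 1 to 4. Psmb7, the trypsin-like site, had 0.02 ± 0.10 (adjusted p = 0.921, limma). The changes of Psmb6 and Psmb7 were on the minus side after median-ratio rescaling, at -0.14 and -0.18, and Psmb5 stood at -0.24 there, against 0.064 for Psmb1, -0.028 for Psmb2, 0.11 for Psmb3 and -0.049 for Psmb4. Of the subunits without a catalytic site, Psmb3 had the smallest p (0.31 ± 0.16, adjusted p = 0.167, limma). Psmb3 held 85.3, 54.0, 61.7 and 95.8 TPM in the melanoma plus lisinopril libraries 1 to 4 and 71.6, 125, 71.1 and 65.9 TPM in the melanoma libraries 1 to 4. In tumour-free muscle Psmb3 held 59.8, 64.4 and 58.6 TPM in the lisinopril libraries 1 to 3 and 69.7, 53.0, 53.2 and 73.2 TPM in the control libraries 1 to 4. Its groups overlapped, and only melanoma 2 and melanoma plus lisinopril 4 and 1 lay above the tumour-free maximum of 73.2 TPM. Psmb1, Psmb2 and Psmb4 had changes between 0.15 and 0.27 that did not pass.

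Each catalytic subunit has an interferon-inducible counterpart, which replaces it in the immunoproteasome and favours cuts that suit antigen presentation. Of the 5 genes on the list of inducible and tissue-specific subunits 3 were tested, and 2 of these fell, against 3.45% of all genes called lower. The 2 were Psmb9 by 0.76 ± 0.18 (adjusted p = 0.0171, limma) and Psmb10 by 0.61 ± 0.17 (adjusted p = 0.0278, limma). Psmb8 had -0.63 ± 0.25 and did not pass (adjusted p = 0.0785, limma), and Psma8 and Psmb11 stayed below 1 TPM. With 1 library left out, Psmb9 did not pass without lisinopril 1 (adjusted p = 0.0536, limma), and Psmb10 did not pass without lisinopril 1, lisinopril 2 or melanoma plus lisinopril 1 (adjusted p up to 0.0826, limma). Psmb9 held 0.655, 1.17, 1.15 and 0.76 TPM in the melanoma plus lisinopril libraries 1 to 4 and 1.02, 0.675, 1.27 and 1.49 TPM in the melanoma libraries 1 to 4. In tumour-free muscle Psmb9 held 2.29, 1.76 and 1.64 TPM in the lisinopril libraries 1 to 3 and 2.02, 6.66, 2.32 and 2.29 TPM in the control libraries 1 to 4. All 8 tumour-bearing libraries lay below all 7 tumour-free ones, at 0.655 to 1.49 TPM against 1.64 to 6.66 TPM, which was true of 0.839% of all genes tested. These values lie near the 1 TPM set for testing and depth is unknown, a limit that also holds for the ratio of Psmb9 below.

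The ratio of each inducible subunit to its constitutive partner, which no scaling of libraries can move, was compared over the libraries with an exact permutation test on log2 ratios (two-sided, 8 tumour-bearing against 7 tumour-free, adjusted over 4 ratios, which were chosen after the values were seen). Psmb9 over Psmb6 was 0.467% to 1.36% with a tumour and 1.37% to 5.78% without, a mean log2 difference of -1.35, lower in 8 of 8 libraries than in any tumour-free one (exact permutation p = 0.000311, the smallest this design can give, adjusted 0.00124). Psmb10 over Psmb7 was 7.37% to 12.7% with a tumour and 10.3% to 32.3% without, a mean log2 difference of -0.69 (exact permutation p = 0.00218, adjusted 0.0029). Psmb8 over Psmb5 was 1.91% to 4.66% with a tumour and 3.46% to 19.9% without, a mean log2 difference of -0.76 (exact permutation p = 0.0354, adjusted 0.0354). Leaving out control 2, which held the highest value of all 3 ratios, gave a log2 difference of -1.10 for Psmb9 over Psmb6 (adjusted exact permutation p = 0.00266) and of -0.51 for Psmb10 over Psmb7 (adjusted exact permutation p = 0.00622). Psmb8 over Psmb5 did not pass without control 2 (-0.44, adjusted exact permutation p = 0.0759), without melanoma 2 (-0.66, adjusted exact permutation p = 0.0664) or without both (-0.34, adjusted exact permutation p = 0.133).

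**Figure D2:**
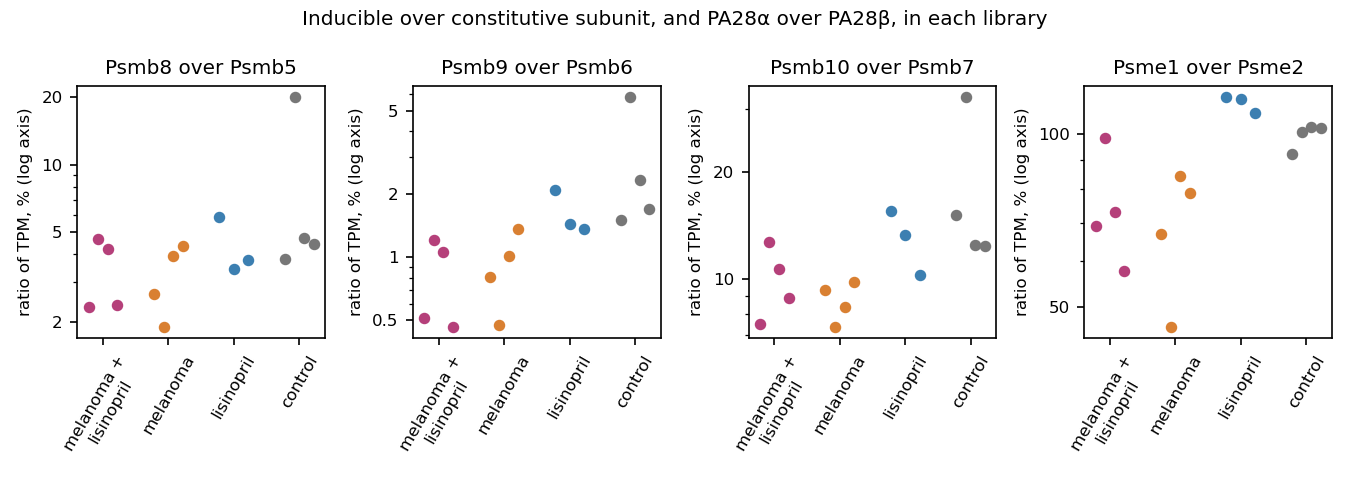
Ratio of TPM of each inducible subunit to its constitutive partner, and of Psme1 to Psme2, as percent on a log axis, with 1 point per library and the groups melanoma plus lisinopril, melanoma, lisinopril and control from left to right. The tumour-bearing points of Psmb9 over Psmb6 all lie below the tumour-free ones, and control 2 is the highest point of the first 3 panels.

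In the single arms Psmb9 over Psmb6 had the smallest p that 4 against 4 libraries allow in melanoma against control (exact permutation p = 0.0286) and the smallest that 4 against 3 allow in melanoma plus lisinopril against lisinopril (exact permutation p = 0.0571). Psmb10 over Psmb7 had exact permutation p-values of 0.171 in the lisinopril arm and 0.0286 in the arm without the drug. Psmb8 over Psmb5 had 0.343 with lisinopril and 0.114 without it (exact permutation tests).

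Some genes of other cell types and of the interferon response differed beside Psmb9, Psmb10, Psme1 and these ratios, and their part in them was not tested. The lymphocyte list summed to 2.91 to 21.5 TPM with a tumour and to 34.1 to 229 TPM without, with 1 of its 3 tested genes lower (Ighm, -3.58), and Cd3d was listed at 0 in 4 of 8 tumour-bearing and 0 of 7 tumour-free libraries. The 15 interferon-stimulated genes summed to 22.9 to 45.6 TPM with a tumour and to 34.6 to 795 TPM without, or to at most 57.5 TPM there when control 2 is left out. Of 14 tested 2 were lower, Gbp3 (-1.17) and Tap1 (-0.83), a peptide transporter. Gbp3 passed in 23 of 25 alternatives and Tap1 in 12. At an unadjusted p below 0.05 there were 3 of 14 (limma), against 38.0% of all genes. Macrophage markers summed to 132 to 373 TPM with a tumour and to 70.4 to 485 TPM without, with 0 of 6 called by limma (2 at an unadjusted p below 0.05). Neutrophil markers summed to 34.3 to 359 TPM with a tumour and to 10.6 to 98.7 TPM without, with 7 of 7 higher. For these counts, 14.5% of all genes were called higher and 3.45% lower. Fewer immune cells and less of each transcript per cell cannot be told apart in such bulk RNA.

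Among the ATPases of the 19S regulator 0 of 6 passed the limma test, and 1 of 6 did at an unadjusted p below 0.05. That gene was Psmc2, the Rpt1 subunit, with 0.55 ± 0.20 (adjusted p = 0.0609, limma). Psmc2 held 70.7, 52.0, 51.5 and 84.3 TPM in the melanoma plus lisinopril libraries 1 to 4 and 58.9, 127, 47.3 and 47.9 TPM in the melanoma libraries 1 to 4. In tumour-free muscle Psmc2 held 43.6, 38.4 and 44.6 TPM in the lisinopril libraries 1 to 3 and 47.0, 49.0, 35.6 and 47.5 TPM in the control libraries 1 to 4. Of the 8 tumour-bearing libraries 6 lay above the tumour-free maximum of 49.0 TPM, and the values of melanoma 3 and melanoma 4 were inside the tumour-free range. Psmc1, Psmc3, Psmc4, Psmc5 and Psmc6 had changes between 0.20 and 0.36, with Psmc4, the Rpt3 subunit, at 195 TPM in melanoma 2 and at 55.9 to 89.1 TPM in the other tumour-bearing libraries.

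Among the other 19S subunits 2 of 11 rose, 18.2%, against 14.5% of all genes called higher, and 7 of 11 had an unadjusted p below 0.05, 63.6%, against 38.0% of all genes. Psmd4 (chr3:95032694-95042614, minus strand, GRCm38), the ubiquitin receptor Rpn10, was 1.76-fold higher with a tumour. Psmd4 held 159, 88.5, 106 and 188 TPM in the melanoma plus lisinopril libraries 1 to 4 and 125, 357, 114 and 99.1 TPM in the melanoma libraries 1 to 4. In tumour-free muscle Psmd4 held 80.8, 69.5 and 76.4 TPM in the lisinopril libraries 1 to 3 and 91.9, 97.5, 58.3 and 85.8 TPM in the control libraries 1 to 4. Of the tumour-bearing libraries 7 lay above the tumour-free maximum of 97.5 TPM, and melanoma plus lisinopril 2 lay inside the range. Psmd1 (chr1:86064387-86139151, plus strand, GRCm38), the scaffold subunit Rpn2, was 1.40-fold higher. Psmd1 held 112, 83.8, 94.1 and 129 TPM in the melanoma plus lisinopril libraries 1 to 4 and 97.4, 159.9, 84.9 and 82.1 TPM in the melanoma libraries 1 to 4. In tumour-free muscle Psmd1 held 77.1, 65.1 and 73.1 TPM in the lisinopril libraries 1 to 3 and 72.1, 82.8, 61.1 and 84.9 TPM in the control libraries 1 to 4. Only 5 of the 8 tumour-bearing libraries were above the tumour-free maximum of 84.9 TPM, and the other 3 did not exceed it, at 82.1 to 84.9 TPM.

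Psmd2, the scaffold subunit Rpn1, missed the threshold (0.60 ± 0.21, adjusted p = 0.057, limma) although 7 of 8 tumour-bearing libraries lay above the tumour-free maximum of 145 TPM. Psmd8 had 0.62 ± 0.29 (adjusted p = 0.135, limma), with 302 TPM in melanoma 2 and 56.9 to 127 TPM in the other tumour-bearing libraries, against 49.2 to 78.1 TPM in tumour-free ones. Psmd11, the Rpn6 subunit, had 0.53 ± 0.22 (adjusted p = 0.0946, limma) and was the member with the highest ratio to tumour-free muscle in melanoma plus lisinopril 2, at 60.3 TPM against 26.7 to 39.2 TPM in tumour-free libraries. Psmd3, Psmd7 and Psmd12 had changes of 0.45, 0.39 and 0.39 that did not pass. Psmd6 had 0.27, Psmd13 had 0.13 and Psmd14, the deubiquitinating subunit Rpn11, had 0.11. The last 2 were on the minus side after median-ratio rescaling.

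The calls of the 3 members that rose depended on single libraries and on the scaling, while all 3 stayed on the plus side. With 1 library left out the log2 fold change ran between 0.37 and 0.48 for Psma3, 0.61 and 0.92 for Psmd4 and 0.38 and 0.54 for Psmd1, and over all alternatives its lowest values were 0.18, 0.44 and 0.19. Over 26 alternatives Psma3 passed in 18, Psmd4 in 15 and Psmd1 in 11. Without control 3, any of the 3 lisinopril libraries, melanoma plus lisinopril 1 or melanoma plus lisinopril 4, no member was called higher, and these 6 fits called 4.88% to 9.58% of all genes higher. Without control 1 or control 4 Psma3 was the only member called higher, and without melanoma 1 there were 2, Psma3 and Psmd4. Without control 2 and melanoma 2, the 2 libraries that stood apart, 6 members were called higher (Psma3, Psma7, Psmc2, Psmd1, Psmd2 and Psmd4), against a background of 26.1%. After median-ratio rescaling no member was called higher, against 9.45% of all genes, and 2 were called lower, Psme1 and Psme2, against 9.81%.

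Of the activators, Psme1 fell and the other 3 did not pass. PA28α, encoded by Psme1 (chr14:55578123-55581529, plus strand, GRCm38), pairs with PA28β, encoded by Psme2 (chr14:55587441-55591113, minus strand), in 1 ring, and the 2 genes lie near each other on chromosome 14. Psme1 held 15.2, 18.6, 18.5 and 17.8 TPM in the melanoma plus lisinopril libraries 1 to 4 and 17.95, 11.5, 19.9 and 18.9 TPM in the melanoma libraries 1 to 4. In tumour-free muscle Psme1 held 30.6, 26.8 and 25.7 TPM in the lisinopril libraries 1 to 3 and 27.1, 42.4, 23.8 and 29.5 TPM in the control libraries 1 to 4. All 8 tumour-bearing libraries, at 11.5 to 19.9 TPM, lay below all 7 tumour-free ones, at 23.8 to 42.4 TPM, which was true of 0.839% of all genes tested. The fitted level was 1.65-fold lower. Psme2 held 22.1, 18.9, 25.4 and 30.8 TPM in the melanoma plus lisinopril libraries 1 to 4 and 26.8, 24.9, 23.7 and 23.9 TPM in the melanoma libraries 1 to 4. In tumour-free muscle Psme2 held 26.5, 23.4 and 23.7 TPM in the lisinopril libraries 1 to 3 and 29.4, 42.1, 23.2 and 28.8 TPM in the control libraries 1 to 4. Psme2 overlapped between the groups and had -0.15 ± 0.13 (adjusted p = 0.387, limma). It was called lower after median-ratio rescaling (-0.35, adjusted p = 0.0234, limma) and after quantile normalization (-0.35, adjusted p = 0.0297, limma). Psme2b, a retrogene copy of Psme2 that could share its reads, was at 0.115 to 0.904 TPM with a tumour and at 0.0981 to 3.16 TPM without.

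Psme1 over Psme2 was 46.2% to 98.3% with a tumour and 92.2% to 116% without, below every tumour-free library in 7 of 8, with a mean log2 difference of -0.58 (exact permutation p = 0.000622, adjusted 0.00124). The tumour-free ratio was itself 108% to 116% with lisinopril and 92.2% to 103% without, and this permutation did not keep the drug arms apart. Within the arms the exact permutation p was 0.0286 in melanoma against control and 0.0571 in melanoma plus lisinopril against lisinopril. Leaving out control 2, melanoma 2 or both gave differences between -0.59 and -0.49, with adjusted exact permutation p-values of 0.00266, 0.00233 and 0.00466. The call of Psme1 was kept under all 26 alternatives, with changes between -0.91 and -0.55 and adjusted p-values up to 0.0221 (limma). Psme3, the nuclear PA28γ, had 0.09 ± 0.14 (adjusted p = 0.66, limma), and Psme4, which encodes PA200, had 0.33 ± 0.15 (adjusted p = 0.113, limma).

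**Figure D3:**
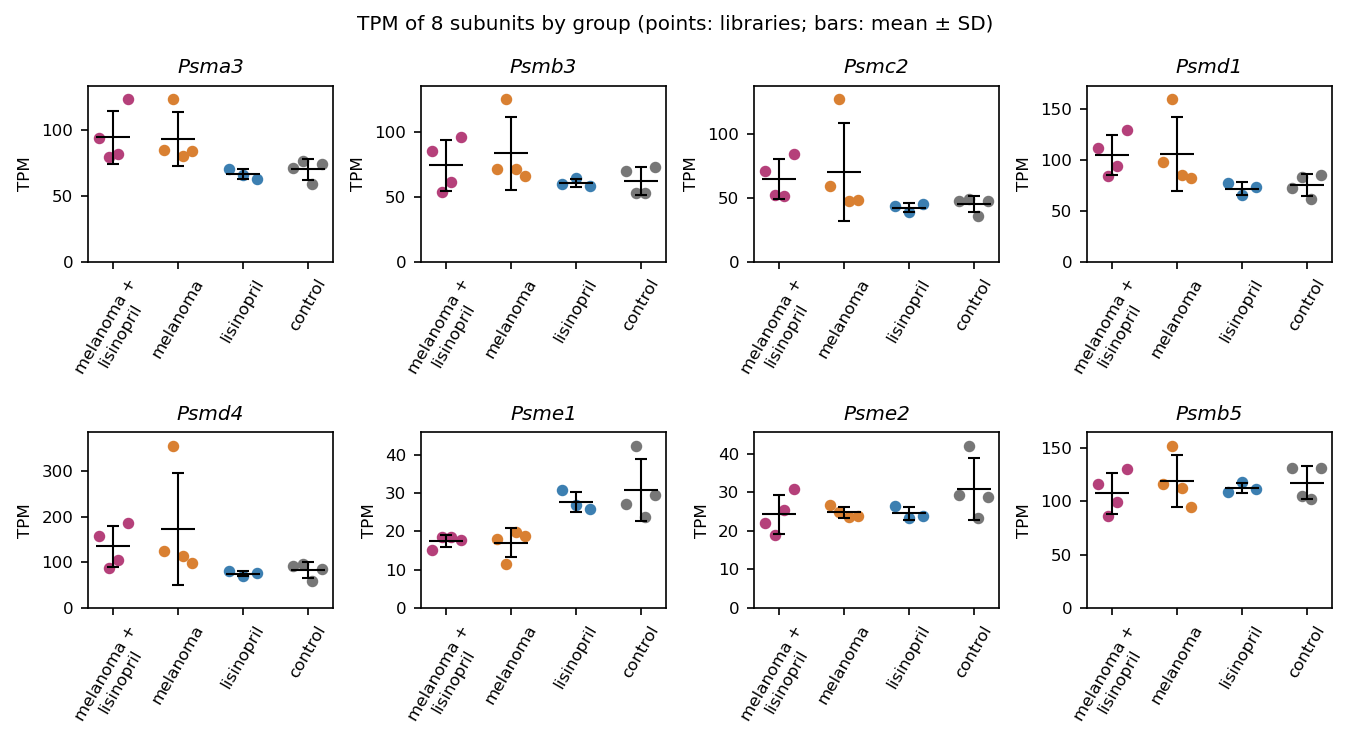
TPM of 8 subunits in the groups melanoma plus lisinopril, melanoma, lisinopril and control from left to right, with 1 point per library and bars for the mean ± SD of 4, 4, 3 and 4 libraries. Psme1 is lower in all 8 tumour-bearing libraries, Psme2 and Psmb5 overlap between the groups, and melanoma 2 is the highest point for Psmb3, Psmc2, Psmd1 and Psmd4.

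The tumour-bearing libraries differed strongly among themselves. The 35 members together took 3069 to 4717 TPM in melanoma plus lisinopril libraries (mean 3797 ± 745, SD, n = 4) and 3186 to 6665 TPM in melanoma libraries (mean 4214 ± 1646, n = 4). They took 3007 to 3106 TPM in lisinopril libraries (mean 3050 ± 50.8, n = 3) and 2680 to 3512 TPM in control libraries (mean 3296 ± 410, n = 4). The highest sums were 6665 TPM in melanoma 2, 4717 TPM in melanoma plus lisinopril 4 and 4066 TPM in melanoma plus lisinopril 1. The other 5 tumour-bearing libraries, at 3069 to 3672 TPM, lay within or just above the tumour-free range of 2680 to 3512 TPM.

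In melanoma 2, 31 of 35 members were above every tumour-free library, against a background of 42.5% of all genes. The counts were 30 of 35 in melanoma plus lisinopril 4 (background 41.9%), 24 in melanoma plus lisinopril 1 (17.7%) and 16 in melanoma 1 (26.6%). They were 7 in melanoma plus lisinopril 3 (11.4%), 5 in melanoma plus lisinopril 2 (18%), 3 in melanoma 3 (21.8%) and 3 in melanoma 4 (10.5%). In melanoma 2, 18 members were at least 2-fold above their tumour-free mean and 3 at least 4-fold, namely Psmd8 (4.82-fold), Psma7 (4.52-fold) and Psmd4 (4.46-fold). In the other tumour-bearing libraries 2 members reached 2-fold, Psmd4 (2.34-fold, melanoma plus lisinopril 4) and Psmd8 (2.03-fold, melanoma plus lisinopril 1).

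The roles stood in 1 order in the 3 libraries with the highest sums and in melanoma 1, and in another order in each of the other 4 tumour-bearing libraries. In melanoma 2 the median log2 ratio to the tumour-free mean was 1.24 for the 19S non-ATPases, 1.19 for the 19S ATPases, 0.85 for the alpha ring, 0.73 for the beta ring and 0.20 for the activators. In melanoma plus lisinopril 4 the same medians were 0.67, 0.57, 0.49, 0.45 and 0.19, and in melanoma plus lisinopril 1 they were 0.53, 0.40, 0.28, 0.26 and -0.17. In melanoma 3 the beta ring (0.015) stood above the alpha ring (-0.032), in melanoma 4 the ATPases (0.063) above the non-ATPases (0.013), in melanoma plus lisinopril 2 the alpha ring (-0.0065) above the ATPases (-0.062), and in melanoma plus lisinopril 3 the ATPases (0.13) above the non-ATPases (0.098). Psme1 was below its tumour-free range in melanoma 2, melanoma plus lisinopril 4 and melanoma plus lisinopril 1, at 11.5, 17.8 and 15.2 TPM. Control 3 was the lowest of all 15 libraries for 23 of 35 members, and its mitochondrial share was the highest, 52.8%. With the mitochondrial genome left out, Psma3 and Psmd4 were called higher (adjusted p = 0.0453 and 0.0497, limma) and Psme1 lower (adjusted p = 0.00307, limma).

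**Figure D4:**
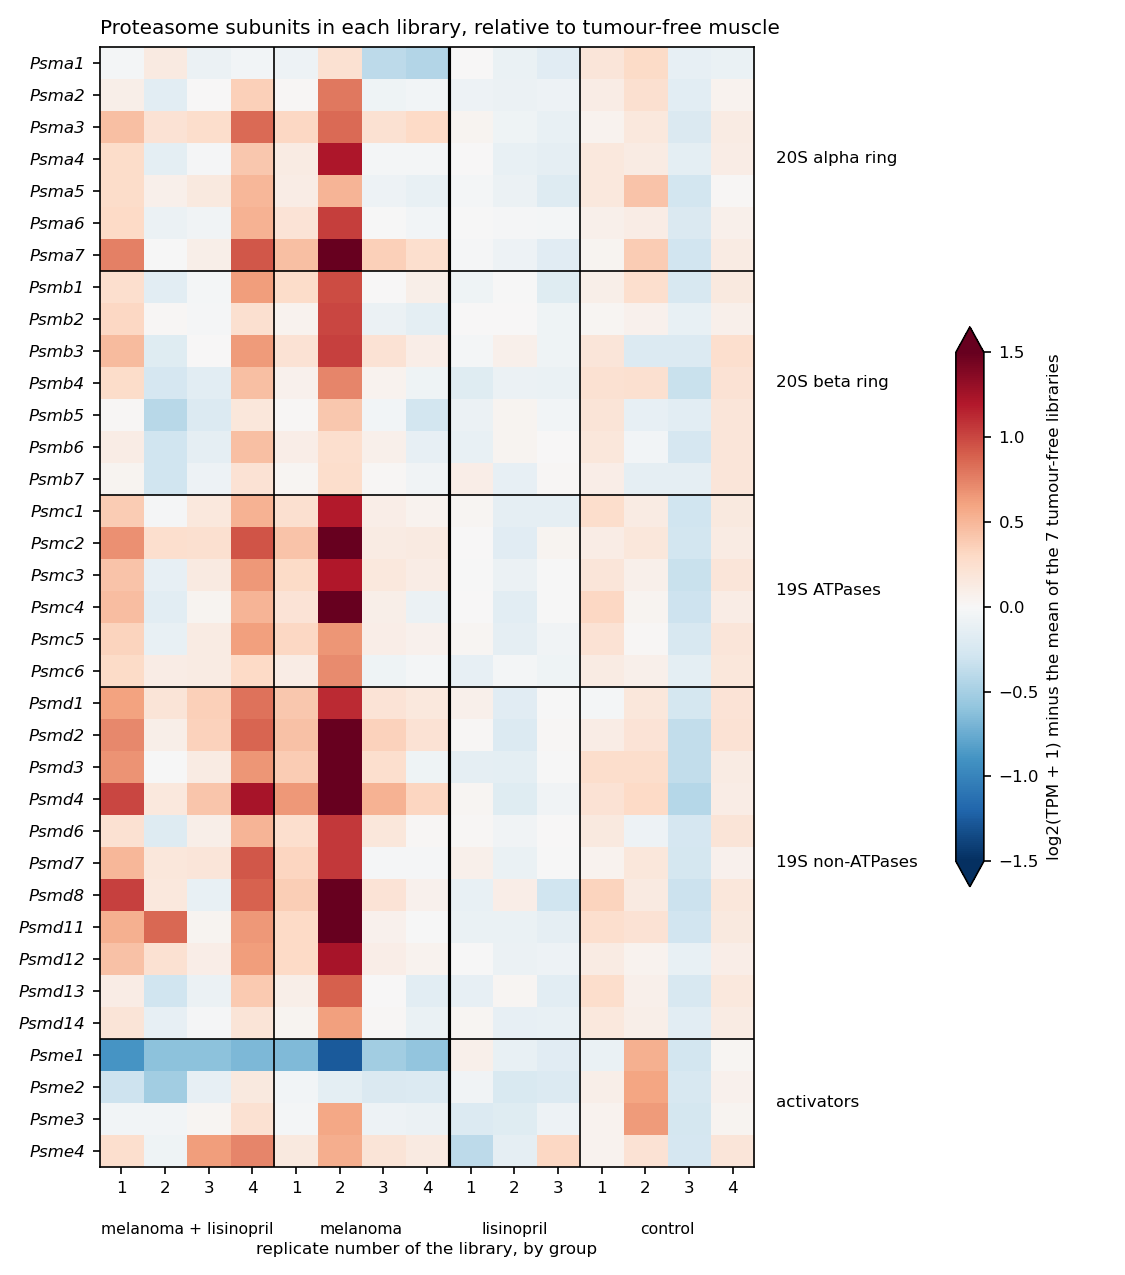
Each of the 35 subunits (rows, by role) in each of the 15 libraries (columns, in the groups melanoma plus lisinopril, melanoma, lisinopril and control), as log2(TPM + 1) minus the mean of the 7 tumour-free libraries, with red for higher, blue for lower and the colour saturated beyond 1.5. Melanoma 2 and melanoma plus lisinopril 4 and 1 are red for most of the core and regulator in TPM (after median-ratio rescaling the average effect is on the plus side for 22 members), and the Psme1 row is blue in all 8 tumour-bearing libraries.

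Within each drug arm no member passed. In melanoma against control, the tumour's effect in untreated mice, 0 of 35 members were called, against a background of 0.646% of all genes (limma). At an unadjusted p below 0.05 there were 5 members (Psma3, Psmd1, Psmd2, Psmd4 and Psme1), 14.3% of 35, against 18.5% of all genes. The change of Psme1 there was -0.81 ± 0.19 (adjusted p = 0.0643, limma) and that of Psmd4 0.87 ± 0.34 (adjusted p = 0.207, limma). In melanoma plus lisinopril against lisinopril, the tumour's effect in treated mice, again 0 of 35 were called, against a background of 1.48% (limma). At an unadjusted p below 0.05 there were 3 members (Psma3, Psmd1 and Psme1), against 23.3% of all genes. Psme1 had -0.63 ± 0.20 (adjusted p = 0.116, limma) and Psmd4 0.77 ± 0.37 (adjusted p = 0.223, limma). The 2 arms share no library, and the median over the members was 0.27 under lisinopril and 0.27 without it, against 0.23 and 0.10 for all genes. With 1 library left out, the members' median relative to all genes ran between -0.036 and 0.14 under lisinopril and between -0.013 and 0.28 without it.

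Lisinopril changed no member past the threshold. In melanoma plus lisinopril against melanoma 0 of 35 members were called, as were 0.0% of all genes, and 0 members but 1.59% of genes had an unadjusted p below 0.05 (limma). The members' changes ran between -0.36 for Psma7 and 0.16 for Psma1, with SEs of 0.35 and 0.16. In lisinopril against control 0 of 35 were called, again with 0.0% of all genes and with 0 members and 3.87% of genes at an unadjusted p below 0.05 (limma). Changes there ran between -0.29 for Psme2 and 0.0017 for Psmb7, with a median of -0.12 over the members and -0.18 over all genes. The interaction of tumour and drug called 0 of 35, with 0.0% of all genes, and 0 members and 1.27% of genes at an unadjusted p below 0.05 (limma). Its largest value was 0.32 ± 0.25 for Psma5.

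Genes that work around the proteasome were read in the same averaged comparison, which called 14.5% of all genes higher. Their lists were chosen for their function, but with earlier results of these data known. Of the 8 assembly chaperones tested, which build the core and the regulator, none passed the limma test (1 at an unadjusted p below 0.05), and their median was -0.12. Pomp, the maturation factor of the core, had -0.10 ± 0.10 (adjusted p = 0.486, limma). Of 16 other 19S subunits, inhibitors and adaptors 3 rose, among them Ubqln1 (0.45 ± 0.14, adjusted p = 0.0412, limma) and Ubqln2 (0.48 ± 0.15, adjusted p = 0.0417, limma), shuttle factors that carry ubiquitinated proteins to the proteasome. Usp14, a deubiquitinase bound to the regulator, had 0.22 ± 0.13 and Zfand5, an activator of the 26S proteasome, had 0.59 ± 0.21, and neither passed (adjusted p = 0.233 and 0.0585, limma).

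Nfe2l1 encodes Nrf1, the factor that raises proteasome genes when proteasome activity is short. Its transcript had 0.04 ± 0.11 (adjusted p = 0.814, limma), at 187 to 318 TPM with a tumour and 197 to 280 TPM without. Of the 8 genes of its pathway 3 rose, against 14.5% of all genes called higher. The 3 were Ddi2, the protease that activates Nrf1 (0.96 ± 0.27, adjusted p = 0.0301, limma), Nfe2l2, which encodes Nrf2 (0.81 ± 0.17, adjusted p = 0.00747, limma), and the partner factor Mafg (0.46 ± 0.15, adjusted p = 0.0433, limma). Ddi2 stood at 24.0 to 96.0 TPM with a tumour and at 16.4 to 25.8 TPM without, with the highest values in melanoma 2 and melanoma plus lisinopril 4. Of 26 alternatives Nfe2l2 passed in 26, Ddi2 in 19 and Mafg in 10, and with 1 of the 15 libraries left out the call was lost in 6 fits for Ddi2 and in 12 for Mafg (adjusted p up to 0.0724 and 0.0938, limma).

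Of the 6 genes for ubiquitin and its activating enzymes 2 rose, among them the polyubiquitin gene Ubb (0.80 ± 0.24, adjusted p = 0.0341, limma). Ubb reached 2955 TPM in melanoma plus lisinopril 4, 2913 TPM in melanoma 2 and 1701 TPM in melanoma plus lisinopril 1, and held 950 to 1474 TPM in the other tumour-bearing libraries, against 691 to 1303 TPM in tumour-free ones. Of 11 muscle ubiquitin ligases and FoxO factors 6 rose: Foxo1 (1.85 ± 0.35), Fbxo31 (1.48 ± 0.34), Trim63 (1.47 ± 0.43), Foxo3 (0.85 ± 0.24), Cblb (0.80 ± 0.20) and Foxo4 (0.50 ± 0.13). Fbxo32 had 1.27 ± 0.48 and did not pass (adjusted p = 0.0732, limma). Trim63 was highest in the libraries with the highest sum of proteasome subunits, at 1974 TPM in melanoma 2, 1563 TPM in melanoma plus lisinopril 4 and 1044 TPM in melanoma plus lisinopril 1, and held 228 to 401 TPM in the other tumour-bearing libraries, against 167 to 341 TPM in tumour-free ones. Of all genes, 42.5% lay above every tumour-free library in melanoma 2, 41.9% in melanoma plus lisinopril 4 and 17.7% in melanoma plus lisinopril 1. The 8 lists of genes around the proteasome were chosen with earlier results of these data known, so their share of calls is a description and no test. Over all 8 lists 22 of 71 tested genes rose, against 14.5% of all genes. Of these, 10 passed after median-ratio rescaling, where 9.45% of all genes were called higher, and 14 without the mitochondrial genome, where 1286 of 12865 genes (10%) were, and none of the 22 changed sign under either. Over 26 alternatives Foxo1 and Fbxo31 passed in 26, Cblb in 25, Foxo4 in 22, Trim63 in 18, Foxo3 in 17, Ubb in 16, Ubqln1 in 12 and Ubqln2 in 11.

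**Figure D5:**
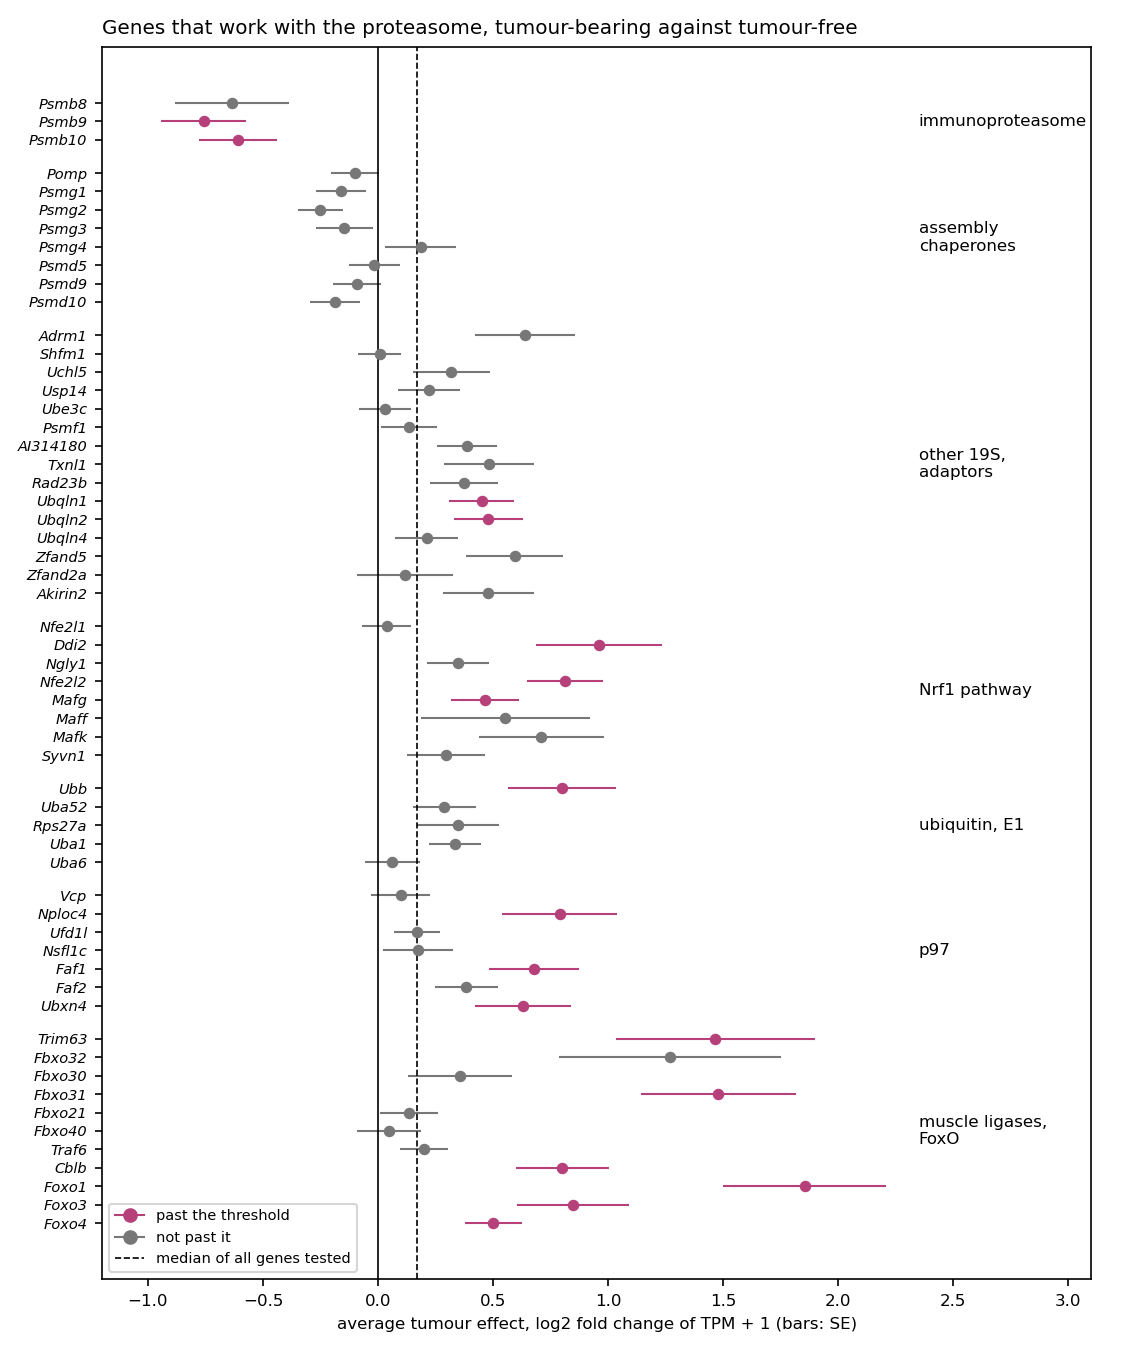
Average tumour effect on genes that work with the proteasome, grouped by list, as log2 fold change of TPM + 1 with its SE (horizontal axis), coloured where the adjusted p is below 0.05, with the median of all genes as a dashed line and some genes not shown. The 3 inducible subunits lie on the minus side, none of the 8 assembly chaperones is coloured, and Foxo1 lies furthest on the plus side, at 1.85.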

How the data were processed

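Muscle RNA was sequenced as 15 libraries with a TruSeq stranded mRNA kit, per the labels' protocols. The authors deposited 1 table of TPM per gene symbol, and each of its columns sums to 1000000. The genome build was mm10, per the submitters' processing notes, and for the aligner and the counter a name is not given in the sources used here. TPM keeps no depth, so no count model or counting interval was used.

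Genes with at least 1 TPM in at least 3 libraries were tested on log2(TPM + 1) with limma 3.58.1 (R 4.3.3): 4 group means shared 1 spread (11 residual degrees of freedom), eBayes used a trend, p-values were adjusted by Benjamini-Hochberg over 11923 genes and the threshold was 0.05. A fold change on this scale understates the change of low genes. The average tumour effect is the mean of the effects in both drug arms. Partner ratios were compared with exact permutation tests (scipy 1.17.1). The scripts were checked on simulated data.

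The members and lists were chosen with earlier results of these data known. Values in every library are given for up to 3 called members of each role by size of change, else for the one with the smallest p, and for the 3 catalytic subunits; Psme2 and Psmb9 were added after their values were seen. Coordinates are GENCODE M21 (GRCm38), promoters RefSeq. Paaf1 and protein sequences were not analysed here, and a few genes counted in the lists are not reported here by name. Alternatives were another pseudocount (0.1), no filter, a stricter filter (mean of 5 TPM or more), quantile normalization, median-ratio rescaling, no mitochondrial genome, no trend, sample weights, a replicate block, only the groups compared, and leaving out libraries.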

Additional observations from a re-analysis of the deposited data

Results flagged for a closer look

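Melanoma 2 stood apart from the other 3 melanoma libraries. For a group of 4 the gap of its highest or lowest library to the next, divided by the group's range, passes Dixon's critical value by chance in about 1 of 20 groups, so about 5.4 of the 108 groups examined. These groups are the members and their sum in the same libraries, so the gaps of different genes are not independent of one another. In the alpha ring the gap was 0.921 for Psma2, 0.894 for Psma3, 0.914 for Psma4, 0.834 for Psma6 and 0.947 for Psma7, and in the beta ring 0.878 for Psmb2, 0.904 for Psmb3 and 0.872 for Psmb4, with melanoma 2 highest in each. Of the ATPases, Psmc1 had 0.889, Psmc2 0.855, Psmc3 0.884 and Psmc4 0.902. Of the other 19S subunits, Psmd2 had 0.913, Psmd4 0.899, Psmd6 0.833, Psmd8 0.934, Psmd11 0.891, Psmd12 0.855 and Psmd14 0.846. Psme3 had 0.932, Psme4 had 0.858, and the summed TPM of the 35 members had 0.86.

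Control 3 was the library apart among the controls, with the lowest value. The gap was 0.83 for Psma4, 0.878 for Psma6, 0.955 for Psmb4 and 0.846 for Psmc2, and 0.97 for the summed TPM of the 35 members. Its mitochondrial share was the highest of all libraries, at 52.8%, and its part in these values was not tested.

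Psma1, the α6 subunit, had opposite signs for lisinopril in the 2 states, 0.16 with a tumour (melanoma plus lisinopril against melanoma) and -0.145 without (lisinopril against control). The difference between these effects, 0.31 ± 0.23, did not pass (limma, adjusted p = 0.9997).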

How the results depend on the processing

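The average tumour effect called 4 members. The count was 2 without a filter and after median-ratio rescaling, 7 with sample weights, 7 without control 2 and melanoma 2, and 1 to 6 when 1 library was left out. Median-ratio rescaling without control 2 and melanoma 2 called Psmd4 higher and 5 members lower (Psma1, Psmb5, Psmb7, Psme1 and Psme2). In that fit 14 of 35 members were on the plus side, and their median was -0.038, against 0.0093 for all genes. The fit with replicate number as a block called 3 (2 higher, 1 lower); correlations of same-numbered libraries ran between -0.153 and 0.359, so the numbers were not taken as pairs. Melanoma against control called 1 member, lower, after median-ratio rescaling, quantile normalization, without the mitochondrial genome, with sample weights, and after median-ratio rescaling without control 2 and melanoma 2. There the members' median relative to all genes was -0.075 with sample weights and -0.075 in the last of these fits, against 0.17. Melanoma plus lisinopril against lisinopril called 1 after median-ratio rescaling, 7 with sample weights, 1 in a fit of these groups only, 6 without control 2 and melanoma 2, 1 after rescaling without both, and 0 to 1 when 1 library was left out (1 without melanoma 2). Psmb8 over Psmb5 gave -0.44 without control 2, -0.66 without melanoma 2 and -0.34 without both, none past the threshold. The drug contrasts and the interaction called 0 members under every alternative run (limma).

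Signs near 0 turned. Under median-ratio rescaling Psmb6 stood at -0.14, Psmb7 at -0.18 and Nfe2l1 at -0.16. Under quantile normalization they stood at -0.18, -0.20 and -0.15. Without the mitochondrial genome they stood at -0.076, -0.12 and -0.095, and with sample weights at -0.050, -0.071 and -0.065. Rescaled without control 2 and melanoma 2 they stood at -0.19, -0.25 and -0.21, with Psmb3 at -0.038 and Usp14 at -0.057. In that fit Psmb7 was called lower (adjusted p = 0.0493, limma), as were Psmb5 (-0.33, adjusted p = 0.01, limma) and Psma1 (-0.31, adjusted p = 0.0261, limma). Psmb5 was also called lower after quantile normalization (-0.26, adjusted p = 0.0325, limma). Psmb7 was -0.040 without control 2 and melanoma 2 in TPM and -0.000895 with the replicate block. With 1 library left out Psmb5 ran between -0.099 and 0.015, Psmb6 between -0.012 and 0.11, Psmb7 between -0.025 and 0.061 and Nfe2l1 between -0.014 and 0.073. The cause of these shifts was not tested. Among the alternatives 278 values that answer a comparison kept their call or size, 25 moved and 3 lost the threshold. For single genes 773 kept their call, 237 lost and 24 gained the threshold, and 29 changed sign. Depth is unknown, groups hold 3 or 4 libraries, and melanoma 2, control 2 and control 3 weigh on the averages.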

Other observations

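The p97 segregase, which pulls ubiquitinated proteins out of complexes ahead of the proteasome, had 3 of 7 tested genes higher with a tumour and none lower. Of all genes tested, 14.5% were called higher and 3.45% lower. Its ATPase Vcp was not among them, at 0.10 ± 0.13 (log2 fold change ± SE, adjusted p = 0.591, limma). The cofactors Faf1 (0.68 ± 0.19), Nploc4 (0.79 ± 0.25) and Ubxn4 (0.63 ± 0.21) rose (adjusted p = 0.0309, 0.0431 and 0.0488, limma). Faf1 held 27.1 to 77.4 TPM with a tumour and 20.6 to 27.0 TPM without. Its groups thus did not overlap, though they nearly touched, at 27.1 and 27.0 TPM. Of all genes tested, 1.49% were higher in every tumour-bearing library than in any tumour-free one. After median-ratio rescaling Faf1 alone of the 3 passed, and over 26 alternatives Faf1 passed in 17, Nploc4 in 14 and Ubxn4 in 11.

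Of 12 deubiquitinases and ligases of protein quality control 5 rose, against 14.5% of all genes called higher. The same number, 5 of 12, had an unadjusted p below 0.05 (limma), against 38.0% of all genes. The median of the list was 0.094, against 0.17 for all genes. Among the 5 were Ubr4 (0.57 ± 0.15), Huwe1 (0.38 ± 0.10), Ube2d3 (0.43 ± 0.13) and Usp7 (0.38 ± 0.12), with adjusted p-values between 0.0225 and 0.0408 (limma). Ube2d3, a ubiquitin-conjugating enzyme, held 104 to 180.1 TPM with a tumour and 84.7 to 98.8 TPM without. Such a rise without overlap was seen in 1.49% of all genes tested. Stub1, a ligase that works with chaperones, had -0.03 ± 0.13 (adjusted p = 0.885, limma). After median-ratio rescaling 5 of the 12 were on the plus side, and 1 of the 5 that rose, Ubr4, passed. Over 26 alternatives Ubr4 passed in 24, Huwe1 in 19, Ube2d3 in 14 and Usp7 in 9.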
